A study of Mus musculus with 17 samples.

Results

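The expression of 10 genes that mark blood vessel endothelium or its barrier was followed across *Osteocalcin* (*Ocn*) genotypes in newborn testes and forebrain: *Pecam1*, *Cdh5*, *Esam*, *Cldn5*, *Tie1*, *Tek*, *Emcn*, *Plvap*, *Mfsd2a* and *Abcb1a*. The genes were chosen by name and are 10 of the 55359 genes in the deposited table. All 10 passed the filter on low counts in both organs. The study sequenced polyadenylated RNA from 17 libraries of 1-day-old male mice of the osteocalcin-deficient *Ocn*GK strain, made by homologous recombination and kept on a 129/SvEv background. WT pups came from WT mothers. *Ocn*+/− and *Ocn*−/− pups all came from *Ocn*−/− mothers, so effects of the pup's own genotype, of the maternal genotype and of the litter cannot be told apart in a comparison of mutants with WT. *Ocn*−/− and *Ocn*+/− pups shared the maternal genotype. Testes were represented by 2 WT, 3 *Ocn*+/− and 3 *Ocn*−/− libraries and forebrain by 3 libraries of each genotype. The study's legend for its forebrain heatmap gives WT as n = 2 and does not say which libraries these were. The labels call the brain tissue hippocampus and the study calls it forebrain, with the hippocampus included, so the name forebrain is used here.

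The inner lining of blood vessels is a single layer of endothelial cells joined by adherens junctions, built on VE-cadherin, and by tight junctions, built on claudins. In the brain these junctions are especially tight, vesicular transport across the cell is kept low, and efflux pumps return many molecules to the blood, which together make the blood-brain barrier. Vessels of most peripheral organs are leakier and more of them carry diaphragms in caveolae and fenestrae. TIE receptors on the endothelium bind or modulate angiopoietins and set how quiescent or plastic a vessel is. In RNA from a whole organ, fewer endothelial cells and less RNA per endothelial cell cannot be told apart.

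Libraries held between 7302401 and 8289015 expected counts in testes and between 6518151 and 14621584 in forebrain. The forebrain library WT 3 stood apart: it had the fewest counts and 8.5% of them in *Rn18s-rs5*, a ribosomal RNA gene, whereas the most abundant gene of the other libraries took 1% to 1.56%. The osteocalcin genes were too low to check the genotype labels, with 0 to 5 expected counts of *Bglap* and 0 of *Bglap2* in every library. Forebrain counts of members and lists that moved without WT 3 are given with and without it. No source states whether the pups of one genotype came from different litters, so p-values measure the spread between these samples only.

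Levels were compared between genes as CPM (expected counts relative to the TMM-adjusted total of the library) per kilobase of the canonical transcript. In WT testes *Cdh5*, which encodes VE-cadherin, was the most abundant of the group at 62.6 ± 5.8 CPM per kb (SD, n = 2). It was followed by *Pecam1*, an adhesion receptor of endothelial contacts, at 30.1 ± 1.5 CPM per kb, and by *Esam*, an immunoglobulin-type adhesion molecule of endothelial tight junctions, at 16.1 ± 0.65 CPM per kb. *Emcn*, a sialomucin of capillary and venous endothelium, came next at 8.86 ± 1.4 CPM per kb. *Tie1* (6.65 ± 0.63 CPM per kb), *Cldn5* (6.26 ± 1.1) and *Tek* (5.84 ± 0.037) overlapped in order, each with its neighbour. *Plvap* (5.49 ± 0.36 CPM per kb), *Mfsd2a* (4.38 ± 1.0) and *Abcb1a* (2.32 ± 0.010) closed the order.

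The order differed in WT forebrain, where *Cldn5*, the claudin that dominates tight junctions of brain endothelium, came first at 22 ± 1.6 CPM per kb (SD, n = 3). *Mfsd2a*, a lysophospholipid carrier that also restrains vesicular transport in brain endothelium, was second at 11.7 ± 1.6 CPM per kb. Its libraries overlapped those of *Esam* (10.5 ± 1.7 CPM per kb), which overlapped those of *Pecam1* (8.39 ± 1.2), and *Pecam1* overlapped *Cdh5* (8.11 ± 0.37). *Plvap* (3.29 ± 0.38 CPM per kb), the protein of caveolar and fenestral diaphragms, and *Tie1* (3.29 ± 0.042) could not be ordered. The lowest levels were those of the angiopoietin receptor *Tek* (2.65 ± 0.32 CPM per kb), the efflux pump *Abcb1a* (2.12 ± 0.42) and *Emcn* (1.89 ± 0.58), each overlapping its neighbour. All 10 genes were thus present in every library of both organs, with at least 34 expected counts in testes and at least 32 in forebrain.

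To ask whether these genes differed with genotype in testes, mutants (the mean of *Ocn*+/− and *Ocn*−/−) were set against WT. In this comparison 5 of the 10 genes fell (*Pecam1*, *Cdh5*, *Tek*, *Emcn* and *Plvap*), 1 rose (*Mfsd2a*) and 4 did not pass the test (*Cldn5*, *Tie1*, *Esam* and *Abcb1a*), by edgeR's quasi-likelihood test at a Benjamini-Hochberg adjusted p under 0.05 over 16361 genes. Of all genes tested 5.43% were called lower and 4.51% higher in the same comparison. The median log2 fold change was −0.45 over the 10 genes and −0.0035 over all genes. In 6 of the 10 genes all mutant libraries lay below both WT libraries, and in 1 all lay above. Over all genes tested these shares were 13.6% and 12.5%. With libraries scaled by their size alone, *Cdh5* was no longer called (adjusted p = 0.0682), and the split of all calls moved from 738 higher and 888 lower to 1201 higher and 633 lower. The number of calls leaned on the 2 WT testes: 2 genes (*Pecam1* and *Emcn*) were called without WT 1 and 1 (*Pecam1*) without WT 2.

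**Figure D1:**
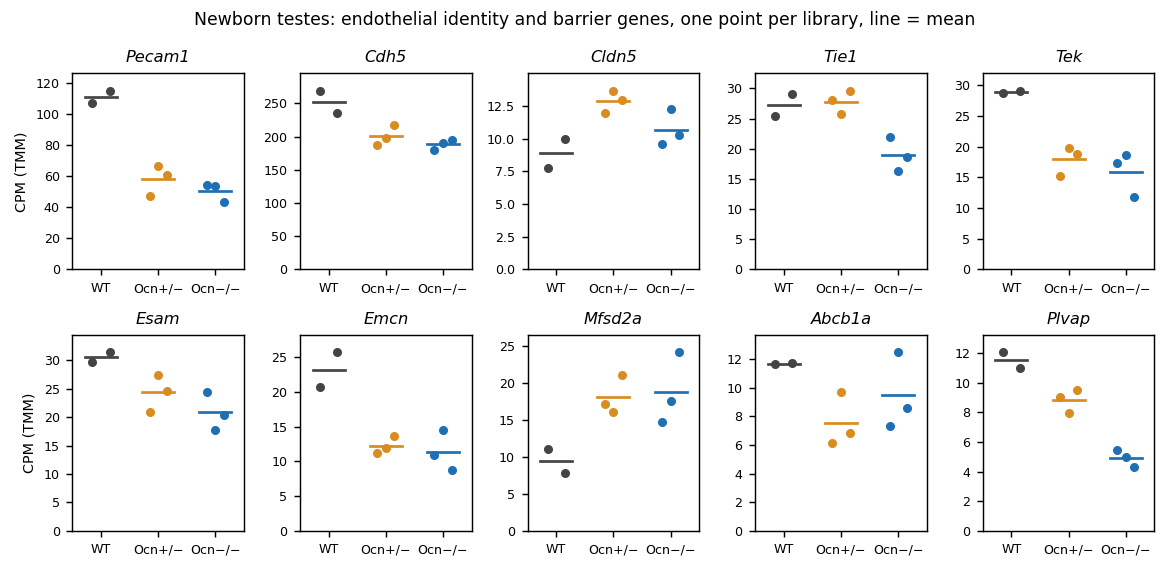
CPM after TMM scaling (vertical axes, starting at 0) of the 10 endothelial genes in the 8 testes libraries, 1 point per library, with a line at the mean of WT, *Ocn*+/− and *Ocn*−/−. *Pecam1* stands at 107 and 115 CPM in WT and at 43.6 to 66.5 CPM in the mutants, while *Mfsd2a* stands at 7.82 and 11 CPM in WT and at 14.7 to 24.1 CPM in the mutants.

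Among the junction and adhesion genes, *Pecam1* (ENSMUSG00000020717.20; GRCm39 chr11:106543689-106641454, minus strand) changed most. In testes it stood at 107 and 115 CPM in the 2 WT libraries, at 47.2, 66.5 and 61.1 CPM in *Ocn*+/− and at 54.5, 53.5 and 43.6 CPM in *Ocn*−/−. Every mutant library lay below both WT libraries by a wide margin. *Pecam1* fell by 1.03 on the log2 scale in mutants (SE 0.13, adjusted p = 0.000202), a ratio of 0.490 to WT, by 0.93 in *Ocn*+/− (SE 0.15, adjusted p = 0.00245) and by 1.13 in *Ocn*−/− (SE 0.15, adjusted p = 0.000512). Its fall in mutants was called when any one of the 8 libraries was left out, with adjusted p between 9.66e-05 and 0.0150. PECAM1 is also carried by platelets and leukocytes. Of 8 platelet and megakaryocyte genes 3 were abundant enough to test in testes and 0 were called. The summed level of the list was 40.1 to 43.3 CPM in WT and 35.4 to 42.7 CPM in mutants. The part of platelets, leukocytes and blood left in vessels in the *Pecam1* values was not tested.

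*Cdh5* (ENSMUSG00000031871.10; chr8:104828231-104871143, plus strand) stood at 268 and 235 CPM in WT testes, at 188, 198 and 218 CPM in *Ocn*+/− and at 180, 191 and 195 CPM in *Ocn*−/−. The groups did not overlap, but the gap was narrow beside that of *Pecam1*. *Cdh5* fell by 0.37 in mutants (log2, SE 0.11, adjusted p = 0.0363) and by 0.42 in *Ocn*−/− (SE 0.12, adjusted p = 0.0497). In *Ocn*+/− the difference was −0.32 (SE 0.12, adjusted p = 0.0987). *Esam* (ENSMUSG00000001946.15; chr9:37439344-37449615, plus strand) stood at 29.7 and 31.4 CPM in WT, at 21.0, 27.5 and 24.6 CPM in *Ocn*+/− and at 24.4, 17.7 and 20.5 CPM in *Ocn*−/−, again without overlap. Its difference in mutants, −0.44 (SE 0.16), had an adjusted p of 0.0968. *Cldn5* (ENSMUSG00000041378.3; chr16:18595597-18597012, plus strand) went the other way, from 7.77 and 9.97 CPM in WT to 12.0, 13.6 and 12.9 CPM in *Ocn*+/− and 9.60, 12.2 and 10.2 CPM in *Ocn*−/−. The WT range took in 1 *Ocn*−/− library, and the difference in mutants was 0.40 (95% interval −0.051 to 0.85, adjusted p = 0.241).

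The 2 TIE receptors differed in their values. *Tek* (ENSMUSG00000006386.16; chr4:94627291-94763224, plus strand), which encodes the angiopoietin receptor TIE2, stood at 28.8 and 29.0 CPM in WT testes, at 15.1, 19.8 and 18.8 CPM in *Ocn*+/− and at 17.3, 18.6 and 11.8 CPM in *Ocn*−/−. No mutant library reached the WT level. *Tek* fell by 0.77 in mutants (log2, SE 0.18, adjusted p = 0.0156) and by 0.86 in *Ocn*−/− (SE 0.21, adjusted p = 0.0247). In *Ocn*+/− its difference was −0.69 (SE 0.21, adjusted p = 0.0508), and it passed the threshold in 8 of 19 alternatives, DESeq2 among them (adjusted p = 0.0380). *Tie1* (ENSMUSG00000033191.15; chr4:118328385-118347261, minus strand), the partner receptor that modulates TIE2, stood at 25.4 and 29.0 CPM in WT, at 28.2, 25.7 and 29.6 CPM in *Ocn*+/− and at 21.9, 16.3 and 18.7 CPM in *Ocn*−/−. *Ocn*+/− libraries thus lay within the WT range or just above it and *Ocn*−/− libraries below it. The difference of *Tie1* was 0.032 in *Ocn*+/− (95% interval −0.34 to 0.41) and −0.52 in *Ocn*−/− (adjusted p = 0.0941).

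The 2 surface glycoproteins of peripheral vessels both fell. *Emcn* (ENSMUSG00000054690.18; chr3:137046794-137138999, plus strand) stood at 20.7 and 25.7 CPM in WT testes, at 11.3, 12.0 and 13.6 CPM in *Ocn*+/− and at 10.9, 14.5 and 8.72 CPM in *Ocn*−/−. It fell by 0.97 in mutants (log2, SE 0.20, adjusted p = 0.00670), by 0.92 in *Ocn*+/− (adjusted p = 0.0234) and by 1.03 in *Ocn*−/− (adjusted p = 0.0158). *Plvap* (ENSMUSG00000034845.7; chr8:71948674-71964506, minus strand) stood at 12.0 and 11 CPM in WT, at 9.03, 7.95 and 9.49 CPM in *Ocn*+/− and at 5.45, 4.97 and 4.3 CPM in *Ocn*−/−. Its libraries formed separate steps, with *Ocn*−/− lowest. *Plvap* fell by 0.81 in mutants (SE 0.22, adjusted p = 0.0298) and by 1.23 in *Ocn*−/− (SE 0.25, adjusted p = 0.0110), and its difference was −0.38 in *Ocn*+/− (adjusted p = 0.346). Exons of *Gtpbp3*, a mitochondrial tRNA modification enzyme, overlap *Plvap* on the opposite strand and no source states that counting used strand. *Gtpbp3* stood at 9.46 to 12.4 CPM in WT and at 12.8 to 19.3 CPM in mutants (difference 0.59, adjusted p = 0.0652), so reads of the pair may not be fully told apart.

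The 2 transport genes also parted. *Mfsd2a* (ENSMUSG00000028655.12; chr4:122840643-122855244, minus strand) stood at 11 and 7.82 CPM in WT testes, at 17.1, 16.0 and 21.0 CPM in *Ocn*+/− and at 14.7, 17.6 and 24.1 CPM in *Ocn*−/−. All 6 mutant libraries lay above both WT libraries. *Mfsd2a* rose by 0.97 in mutants (log2, SE 0.23, adjusted p = 0.0176), by 0.94 in *Ocn*+/− (adjusted p = 0.0336) and by 1.00 in *Ocn*−/− (adjusted p = 0.0303). The call was lost without WT 1 (1.24, adjusted p = 0.0636) or without WT 2 (0.76, adjusted p = 0.290). *Mfsd2a* is also made outside vessels, and which testicular cells made it here was not tested. *Abcb1a* (ENSMUSG00000040584.9; chr5:8710022-8798575, plus strand), which encodes a P-glycoprotein, stood at 11.7 and 11.7 CPM in WT, at 6.11, 9.72 and 6.88 CPM in *Ocn*+/− and at 7.35, 12.5 and 8.59 CPM in *Ocn*−/−. It overlapped WT, and its difference was −0.46 (95% interval −0.99 to 0.057, adjusted p = 0.238). Of the 50-base stretches of its transcript 16.8% also occur in transcripts of its paralogs, so its values are uncertain. The paralog *Abcb1b* differed by −0.88 in testes (adjusted p = 0.131). In forebrain, where it had 2 to 19 expected counts, it differed by 1.11 (adjusted p = 0.163). No such stretch was shared by the other 9 genes.

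*Ocn*−/− and *Ocn*+/− testes, whose mothers shared a genotype, were compared directly. In this comparison 0 of the 10 genes were called by edgeR (0% of all genes) or by DESeq2, and 2 had an unadjusted p under 0.05, beside 11.5% of all genes. Those 2 were *Plvap*, at −0.84 (95% interval −1.34 to −0.34, adjusted p = 0.256), and *Tie1*, at −0.55 (95% interval −0.89 to −0.21, adjusted p = 0.288). In both, all 3 *Ocn*−/− libraries lay below all 3 *Ocn*+/− libraries. The share of all genes that separate in this way was not counted, and the 2 genes were picked by their p-value, so the separation adds no support. Against WT, 3 genes were called in *Ocn*+/− (*Pecam1*, *Emcn* and *Mfsd2a*; 8.25% of all genes) and 6 in *Ocn*−/− (5.64% of all genes). These 2 comparisons share their WT libraries. In *Ocn*−/− 3 genes were left without *Ocn*−/− 1 or *Ocn*−/− 3, as calls over all genes went from 922 to 409 and 589. In *Ocn*+/− 1, *Pecam1*, was left without *Ocn*+/− 1 or *Ocn*+/− 3, as calls over all genes went from 1350 to 352 and 459. Both comparisons also leaned on the 2 WT testes. *Emcn* in *Ocn*−/− stood at −1.17 without WT 1 and −0.85 without WT 2, and *Mfsd2a* at 1.27 and 0.79.

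Differences between mutants and WT varied with the GC content of transcripts. In testes the median log2 difference of all genes was −0.16 in the fifth of genes with the lowest GC content. It was 0.20 in the fifth with the highest. In forebrain these medians were −0.072 and 0.047. GC content was 41.6% for *Emcn*, 45.3% for *Abcb1a*, 47.1% for *Tek*, 50.1% for *Pecam1* and between 52.3% and 60.5% for the other members. In testes, with offsets for GC content chosen after seeing the data, the 6 genes called in mutants were still called. *Esam* was added at −0.52 (adjusted p = 0.0430), beside 10% of all genes. In *Ocn*−/− 8 genes were then called, with *Tie1* (−0.60, adjusted p = 0.0285) and *Esam* (−0.58, adjusted p = 0.0493) added, while the calls over all genes also rose, from 5.64% to 8.04%. In *Ocn*+/− alone only *Pecam1* was called with these offsets, with *Emcn* at −0.68 (adjusted p = 0.0678) and *Mfsd2a* at 0.79 (adjusted p = 0.0697), and the calls over all genes also fell, from 8.25% to 5.03%. With offsets for GC content and length *Tie1* was again called in *Ocn*−/− (adjusted p = 0.0248), *Esam* was called in neither mutants nor *Ocn*−/−, and *Cdh5* was called beside *Pecam1* in *Ocn*+/− (−0.40, adjusted p = 0.0478), beside 8.01% of all genes in *Ocn*−/− and 5.05% in *Ocn*+/−.

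Promoter sequence was available for 6 of the 10 genes, as the 250 bases upstream of each gene's start in RefSeq (GRCm38.p6, a different build from that of the gene positions above). The windows of 4 genes are shown, because one gene rose (*Mfsd2a*), a pair fell (*Emcn* and *Tek*) and one went up without passing the test (*Cldn5*) in the same testes. Both strands were searched for AGGAAG (ETS factors), AACAAT (SOX factors), AGATAA (bound by GATA factors), CTTTGA (TCF/LEF factors) and ACGTG (core of the hypoxia response element), and matches are in capitals. No match overlapped another.
Mfsd2a (chr4:122961189-122961438, minus strand): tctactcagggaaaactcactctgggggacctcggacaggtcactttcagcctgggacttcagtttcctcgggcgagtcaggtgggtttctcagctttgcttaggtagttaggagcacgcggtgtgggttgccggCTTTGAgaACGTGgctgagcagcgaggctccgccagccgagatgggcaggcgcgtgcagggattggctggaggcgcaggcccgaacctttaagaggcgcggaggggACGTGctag
Emcn (chr3:137340828-137341077, plus strand): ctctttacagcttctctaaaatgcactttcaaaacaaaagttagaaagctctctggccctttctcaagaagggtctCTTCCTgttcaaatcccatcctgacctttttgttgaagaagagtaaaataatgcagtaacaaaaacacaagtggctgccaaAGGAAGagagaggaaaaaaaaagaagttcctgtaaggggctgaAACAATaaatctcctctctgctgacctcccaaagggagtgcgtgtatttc
Tek (chr4:94739039-94739288, plus strand): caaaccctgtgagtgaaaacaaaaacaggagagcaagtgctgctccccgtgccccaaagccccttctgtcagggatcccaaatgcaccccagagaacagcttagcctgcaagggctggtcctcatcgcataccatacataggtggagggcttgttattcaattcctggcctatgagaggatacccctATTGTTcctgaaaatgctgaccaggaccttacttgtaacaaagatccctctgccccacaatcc
Cldn5 (chr16:18776597-18776846, plus strand): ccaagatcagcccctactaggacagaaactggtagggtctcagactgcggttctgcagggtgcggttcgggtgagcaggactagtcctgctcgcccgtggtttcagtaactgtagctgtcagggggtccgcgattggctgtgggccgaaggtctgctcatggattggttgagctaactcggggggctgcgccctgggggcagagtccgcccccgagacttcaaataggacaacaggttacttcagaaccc

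The *Mfsd2a* window held ACGTG at 2 places and CTTTGA at 1, the latter ending 110 bases before the start. The *Emcn* window held AGGAAG at 2 places, 1 on each strand, and AACAAT at 1. *Tek* held AACAAT on the reverse strand only, and *Cldn5* held none of the 5 motifs. Over 32807 windows of the same length, ACGTG occurred in 16.6%, CTTTGA in 13.8%, AGGAAG in 29.5%, AACAAT in 9.43% and AGATAA in 9.99%. Of the other windows, *Tie1* held AGGAAG at 1 place and *Abcb1a* held AGGAAG and CTTTGA at 2 places each. A match describes letters in these windows and does not show that a factor bound there. No entry was found for *Pecam1*, *Cdh5*, *Esam* and *Plvap*.

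To set each gene against the endothelial RNA in the same library, levels were divided by the geometric mean of 28 other endothelial genes, none of them a member. In testes that mean was 31.6 and 33.5 CPM in WT, 22.7 to 25.6 CPM in *Ocn*+/− and 20.2 to 23.8 CPM in *Ocn*−/−, so the reference itself was lower by 0.42 and 0.56 on the log2 scale. When libraries were scaled by it, the median of all genes shifted by 0.50, and changes are then relative to endothelial RNA. Under that scaling 3 members differed: *Mfsd2a* and *Cldn5* were higher (*Cldn5* by 0.90, adjusted p = 0.00376) and *Pecam1* was lower (−0.54). Over all genes 46.4% were then called higher and 1.23% lower, so that 2 of 10 members higher was below the share of all genes. *Cdh5*, *Tie1*, *Esam* and *Abcb1a*, which were lower or near WT in CPM, stood at 0.13, 0.26, 0.060 and 0.032 and were not called. *Tek* (−0.28), *Emcn* (−0.47, adjusted p = 0.0642) and *Plvap* (−0.31) kept a negative sign without passing the test.

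The ratios themselves showed how uneven the genes were. *Cldn5* relative to the reference was 0.261 and 0.312 in WT testes, 0.539 to 0.552 in *Ocn*+/− and 0.424 to 0.567 in *Ocn*−/−. *Mfsd2a* was 0.248 and 0.364 in WT and 0.638 to 1.22 in mutants. *Pecam1* was 3.39 and 3.44 in WT and 2.10 to 2.62 in mutants. *Esam* kept close to its WT ratio of 0.953 in both libraries, at 0.811 to 1.09 in mutants. *Plvap* lay at 0.343 and 0.397 in WT, at 0.330 to 0.420 in *Ocn*+/− and at 0.238 to 0.250 in *Ocn*−/−.

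**Figure D2:**
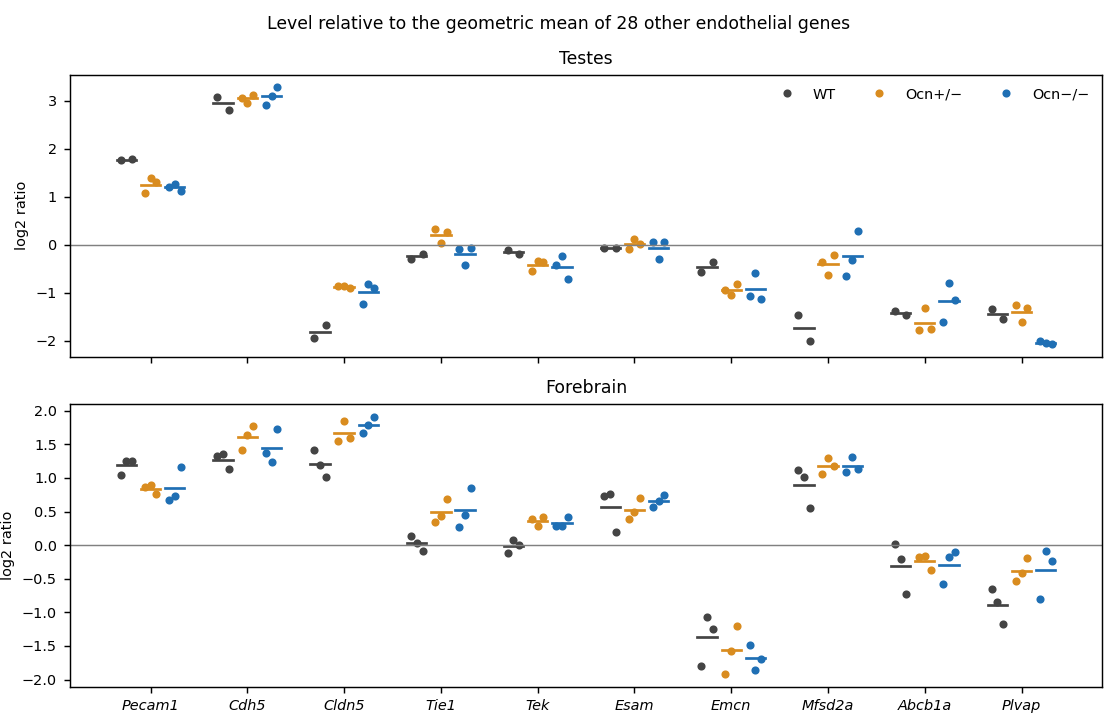
Log2 ratio (vertical axes) of each of the 10 genes to the geometric mean of 28 other endothelial genes, 1 point per library and a line at each genotype mean, with testes above and forebrain below. In testes *Cldn5* and *Mfsd2a* sit higher in all 6 mutant libraries than in WT and *Pecam1*, *Tek* and *Emcn* lower, and in forebrain *Cldn5*, *Tie1* and *Tek* sit higher in all 6 mutant libraries than in WT.

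In forebrain 1 of the 10 genes, *Pecam1*, fell in mutants and 9 did not pass the test, beside 5.39% of 16076 genes called lower and 3.29% called higher. The median log2 difference was 0.024 over the 10 genes and 0.0068 over all genes. With libraries scaled by size alone the split of all calls moved from 529 higher and 866 lower to 738 higher and 404 lower, and *Pecam1* was still the one member called. *Pecam1* stood at 26.1, 31.8 and 34.7 CPM in WT, at 21.0, 18.8 and 20.6 CPM in *Ocn*+/− and at 17.7, 17.5 and 27.6 CPM in *Ocn*−/−. All *Ocn*+/− libraries lay below WT and 1 *Ocn*−/− library lay within the WT range. *Pecam1* fell by 0.57 in mutants (SE 0.14, adjusted p = 0.0173) and by 0.60 in *Ocn*+/− (adjusted p = 0.0469), and in *Ocn*−/− its difference was −0.55 (adjusted p = 0.0605). In mutants the call was lost without WT 3 (−0.49, adjusted p = 0.125) or without WT 2 (−0.55, adjusted p = 0.0768).

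*Cldn5* was the one gene of the 10 whose 6 mutant forebrain libraries did not overlap WT, at 33.7, 30.4 and 29.4 CPM in WT, 34.2, 36.5 and 37.0 CPM in *Ocn*+/− and 36.0, 36.8 and 46.7 CPM in *Ocn*−/−. Over all genes 6.85% showed mutant libraries all above WT and 8.57% all below. The difference of *Cldn5* was 0.27 (95% interval 0.054 to 0.49, adjusted p = 0.109). *Mfsd2a* stood at 27.3, 27.0 and 21.2 CPM in WT and at 24.0 to 27.7 CPM in mutants, with a difference of 0.019 (95% interval −0.21 to 0.25). *Cdh5* stood at 31.8, 34.3 and 31.7 CPM in WT and at 25.1 to 41.9 CPM in mutants, with a difference of 0.029 (95% interval −0.28 to 0.33). Both intervals of these genes leave out a change of the size seen for *Pecam1* in testes.

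*Emcn* was low in forebrain, at 3.20, 5.99 and 5.69 CPM in WT and 2.48 to 4.91 CPM in mutants, and its difference of −0.55 (95% interval −1.10 to 0.0071, adjusted p = 0.202) was poorly bounded. *Tek* stood at 11.3 to 14.2 CPM in WT and 12.1 to 16.4 CPM in mutants (difference 0.14, adjusted p = 0.584). *Tie1* stood at 13.3 to 13.6 CPM in WT and 13.4 to 22.3 CPM in mutants (difference 0.27, adjusted p = 0.331). *Plvap* stood at 6.05 to 7.63 CPM in WT and 6.07 to 10.4 CPM in mutants (difference 0.29, adjusted p = 0.364). *Gtpbp3*, whose exons overlap it, stood at 6.94 to 8.85 CPM in WT and 7.83 to 13.1 CPM in mutants (difference 0.25, adjusted p = 0.332). The limit on telling their reads apart thus holds in forebrain too. *Esam* (−0.24, adjusted p = 0.288) and *Abcb1a* (−0.24, adjusted p = 0.385) had negative values that did not pass the test.

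Between *Ocn*−/− and *Ocn*+/− forebrain 0 of the 10 genes were called by edgeR (0.00622% of all genes) or DESeq2, and 0 had an unadjusted p under 0.05 (3.2% of all genes). Against WT, 1 member, *Pecam1*, was called in *Ocn*+/− (3.89% of all genes), and 0 when WT 2, WT 3 or any 1 of the 3 *Ocn*+/− libraries was left out. Those fits gave 183 to 373 calls over all genes, beside 625 in the full fit. In *Ocn*−/− 0 were called (4.85% of all genes) by edgeR and 1, *Pecam1*, by DESeq2 (7.11% of all genes), and 2 had an unadjusted p under 0.05, about the share of all genes (21.7%). Set against the 28 other endothelial genes, whose geometric mean was 12.8 to 14.7 CPM in WT and 10.3 to 12.6 CPM in mutants, 3 members were higher in mutant forebrain, near the 25.5% of all genes called higher under this scaling (1.65% were lower). They were *Cldn5* (0.53, adjusted p = 0.00427), *Tie1* (0.51, adjusted p = 0.0173) and *Plvap* (0.54, adjusted p = 0.0406). *Pecam1* was then at −0.32 (adjusted p = 0.0961). This scaling moved the median of all forebrain genes from 0.0068 to 0.27.

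**Figure D3:**
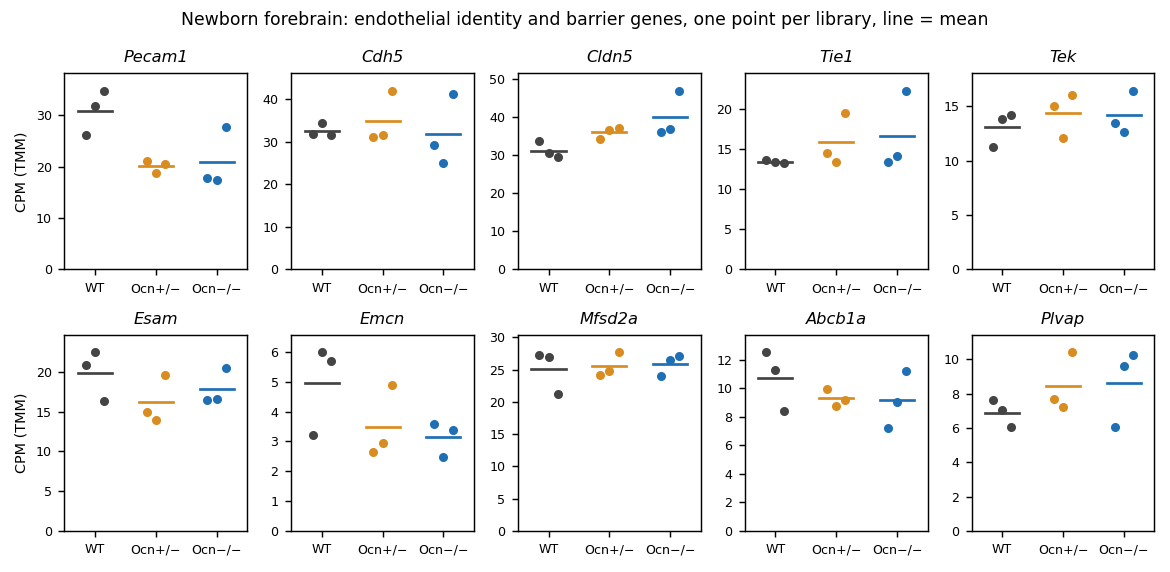
CPM after TMM scaling (vertical axes, starting at 0) of the 10 endothelial genes in the 9 forebrain libraries, 1 point per library, with a line at the mean of each genotype. *Pecam1* is lower in *Ocn*+/− (18.8 to 21.0 CPM) than in WT (26.1 to 34.7 CPM), and *Mfsd2a* lies between 21.2 and 27.7 CPM in all 9 libraries.

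The difference between organs was tested in one fit of all 17 libraries, as the forebrain minus the testes value of the mutant against WT change. The change differed in 3 of the 10 genes, beside 2.96% of 17800 genes. *Tek* was lower in mutant testes and not in forebrain (0.92, SE 0.23, adjusted p = 0.0327). *Plvap* behaved likewise (1.11, SE 0.29, adjusted p = 0.0389), with the limit of its overlap with *Gtpbp3* in both organs. *Mfsd2a* was higher in mutant testes and not in forebrain (−0.93, SE 0.24, adjusted p = 0.0373). *Pecam1*, called lower in both organs, had a difference of 0.47 (95% interval 0.037 to 0.90, adjusted p = 0.228), and for *Cdh5* it was 0.41 (adjusted p = 0.219). The 3 calls depended on which library was left out, as did the calls over all genes (526 in the full fit). Without forebrain WT 1 or WT 2, 0 were left (276 and 283 of all genes). *Mfsd2a* alone was left without forebrain WT 3 (274), testes *Ocn*+/− 1 (371) or forebrain *Ocn*+/− 3 (407). *Tek* alone was left without forebrain *Ocn*−/− 2 (347). Over the 17 fits that leave out 1 library, WT testes included, *Tek* ranged from 0.82 to 0.98. *Plvap* ranged from 1.025 to 1.22 and *Mfsd2a* from −1.20 to −0.71. Scaled to the other endothelial genes, 1 was left, *Mfsd2a* (4.4% of all genes). With library size alone 1 was left, *Tek*, beside 397 of all genes. With the replicate number as a block 0 were left, beside 365 of all genes.

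**Figure D4:**
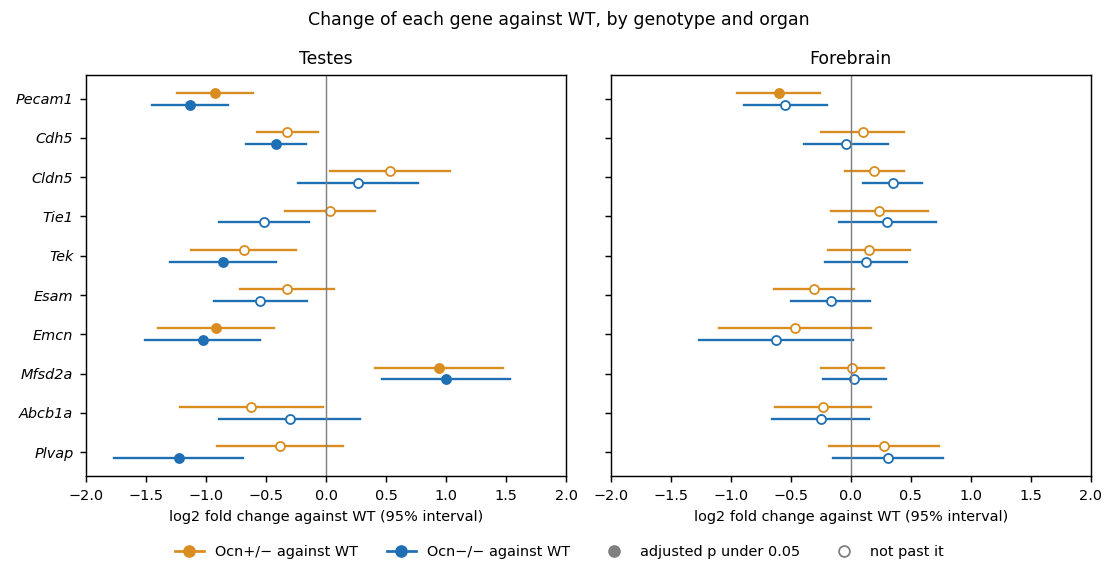
Log2 fold change against WT (horizontal axes, with 95% intervals) of each of the 10 genes in *Ocn*+/− and *Ocn*−/− testes and forebrain, with filled symbols where the adjusted p was under 0.05. In testes *Mfsd2a* lies near 1 and *Pecam1*, *Emcn* and *Tek* below 0, whereas in forebrain *Mfsd2a* lies at 0.010 and 0.027.

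Forebrain and testes were also compared over the 3 genotypes. In forebrain 4 genes were higher and 4 lower, beside 39.9% and 44.5% of all genes, so that a call here says little and the sizes matter more. Higher in forebrain were *Cldn5* (log2 difference 2.06, SE 0.090), *Mfsd2a* (1.12, SE 0.11), *Abcb1a* (0.37, SE 0.14) and *Plvap* (0.34, SE 0.13). Lower were *Cdh5* (−2.36, SE 0.083), *Emcn* (−1.65, SE 0.16), *Pecam1* (−1.23, SE 0.096) and *Tie1* (−0.35, SE 0.11). *Tek* (−0.22, adjusted p = 0.0628) and *Esam* (−0.15, adjusted p = 0.172) were not called. The *Abcb1a* and *Plvap* calls depended on the scaling. With upper quartile scaling they stood at 0.23 (adjusted p = 0.133) and 0.19 (adjusted p = 0.190), and with library size alone at 0.060 (adjusted p = 0.703) and 0.023 (adjusted p = 0.884). Under both, *Tek* (−0.36 and −0.53) and *Esam* (−0.29 and −0.46) were called lower. With WT libraries alone *Plvap* turned to −0.39 (adjusted p = 0.129), *Abcb1a* was at 0.23 (adjusted p = 0.341) and *Tek* was lower (−0.82). Scaled to the other endothelial genes, which moved the median of all genes from −0.087 to 0.73, *Tie1* (0.46), *Tek* (0.60) and *Esam* (0.67) were higher in forebrain, while *Cdh5*, *Emcn* and *Pecam1* were lower and *Cldn5* and *Mfsd2a* higher under every scaling tried.

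Genes that act with the members were followed from lists. They share some genes with each other, and were read against the shares of all genes given above. Their counts rest on single WT libraries: over all genes the 1626 calls in mutant testes went to 286 without WT 1 and 125 without WT 2, and the 1395 in forebrain to 320 without WT 3 and 779 without WT 2. Among partners of the TIE receptors, 2 of 9 tested fell in testes and 0 rose: *Ptprb*, the phosphatase that dampens TIE2 (−1.08, adjusted p = 0.000298), and *Angpt2*, the angiopoietin of remodelling vessels (−1.08, adjusted p = 0.0122). In forebrain the called genes of this list, 2 of 8, were again *Angpt2* (−1.27, adjusted p = 0.00131) and *Ptprb* (−0.35, adjusted p = 0.0392). *Angpt2* stood at 9.20 to 11.2 CPM in WT testes and 3.85 to 5.93 CPM in mutants. In forebrain it stood at 9.07 to 11.9 CPM in WT and 3.25 to 7.0 CPM in mutants. The list's median was −0.41 in testes and −0.074 in forebrain. With either WT testis left out 1 gene of the list was called in testes, and without forebrain WT 3 it was 1 in forebrain.

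Of 21 partners in adherens and tight junctions, 2 rose in testes (*Cgn*, cingulin, 0.55, and *F11r*, junctional adhesion molecule A, 0.37) and 1 fell (*Cldn1*, −0.68). In forebrain 0 rose and 4 fell, among them *Cldn1* (−0.80) and *Vcl*, vinculin (−0.56). *Cgn*, *F11r* and *Cldn1* also belong to epithelia, and *Cldn1* to choroid plexus. The medians of the list were −0.0084 and −0.083. Of the Wnt signals and receptors that induce the brain barrier, 2 of 14 fell in testes (*Fzd4*, −0.83, and the target *Apcdd1*, −0.53; median −0.32). In forebrain 1 of 15 rose (the ligand *Ndp*, 0.64) and 1 fell (the ligand *Wnt7b*, −0.35; median 0.036). With either WT testis left out 0 junction partners were called in testes, and of the Wnt genes 1 was called without WT 1 and 0 without WT 2. Without forebrain WT 3, 1 junction partner fell and 0 Wnt genes were called.

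Other genes of the brain barrier, 25 of 30 tested in testes and 30 of 30 in forebrain, moved both ways. In testes 2 rose (*Foxq1*, 2.25, and *Cgn*) and 4 fell, led by *Slc2a1*, the glucose carrier GLUT1 (−0.86, adjusted p = 0.000946), and *Itih5* (−0.66). *Foxq1*, a forkhead factor, stood at 1.39 to 1.81 CPM in WT testes and at 4.42 to 14.0 CPM in mutants. In forebrain 2 rose, the lactate carrier *Slc16a1* (0.74, adjusted p = 0.000233) and the glutamine carrier *Slc38a5* (1.04, adjusted p = 0.000390), and 4 fell, led by *Slc2a1* (−1.19, adjusted p = 3.89e-07) and *Ly6c1* (−1.06). *Slc2a1* stood at 74.0 to 93.2 CPM in WT forebrain and at 31.4 to 39.5 CPM in mutants. The medians were 0.010 in testes and −0.0075 in forebrain. Without testes WT 1, 1 of these genes rose and 2 fell in testes, and without WT 2 0 were called. Without forebrain WT 3, 2 rose and 3 fell in forebrain.

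The 28 other endothelial genes were lower on balance in testes, with 13 called lower, 2 higher and a median of −0.53. The lowest adjusted p were those of *Flt1*, VEGF receptor 1 (−1.48, adjusted p = 0.000126), and *Cd93* (−0.90, adjusted p = 0.000252), while the transcription factors *Sox7* (0.99) and *Sox18* (0.88) rose. Without WT 1 the counts were 8 lower and 0 higher, and without WT 2 they were 6 and 0. In forebrain 8 fell, led by *Adgrl4* (−1.14, adjusted p = 2.00e-05) and *Flt1* (−1.31, adjusted p = 0.000209), and 1, *Sox18* (1.03), rose, with a median of −0.28. Without forebrain WT 3 the counts were 2 lower and 1 higher. Their summed level was 1582 to 1703 CPM in WT testes and 1007 to 1249 CPM in mutants.

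**Figure D5:**
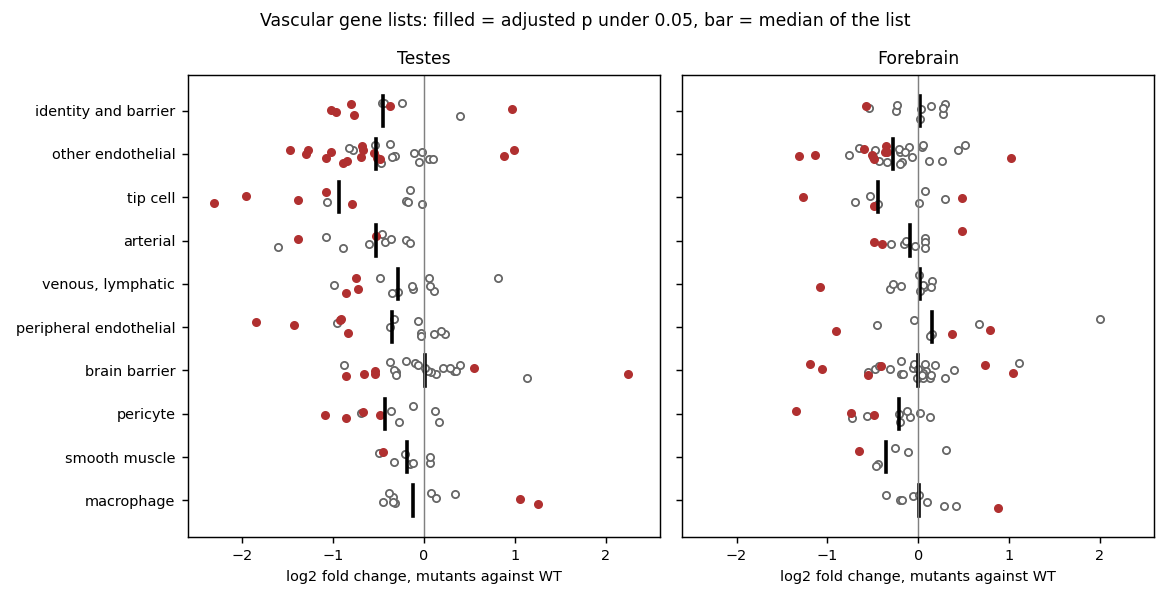
Log2 fold change of mutants against WT (horizontal axes) for the genes of 10 lists, 1 point per gene, filled where the adjusted p was under 0.05, with a bar at the median of the list, for testes and forebrain. The bar of the 10 identity and barrier genes is at −0.45 in testes and 0.024 in forebrain, and that of the 28 other endothelial genes at −0.53 and −0.28.

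Vessel subtypes were followed in the same way in testes. Of 10 tip cell genes 5 fell and 0 rose (median −0.93), led by *Cxcr4* (−1.39, adjusted p = 0.000337) and *Esm1* (−2.31, adjusted p = 0.000694). Arterial genes showed 2 falls of 11 tested (*Cxcr4* and *Jag1*, −0.53; median −0.53), and venous and lymphatic genes 3 of 13 (among them *Vwf*, −0.86, and *Nrp2*, −0.75; median −0.28). Of 14 genes of peripheral endothelium 5 fell, among them *Fabp4* (−1.86) and the caveolar gene *Cav1* (−0.91; median −0.35). In forebrain the median was −0.45 for tip cell genes, with 2 falls (*Angpt2* and *Unc5b*, −0.49) and 1 rise (*Cxcr4*, 0.48), and −0.086 for arterial genes, with 2 falls (*Hey1*, −0.40, and *Unc5b*) and 1 rise (*Cxcr4*). There 1 venous gene fell (*Vwf*, −1.08; median 0.015), and in peripheral endothelium 2 genes rose (*Aplnr*, 0.79, and *Ehd3*, 0.37) and 1 fell (*Cav1*, −0.91; median 0.15). Without testes WT 1 the falls in testes numbered 2 of tip cell genes, 1 of arterial, 2 of venous and lymphatic and 1 of peripheral genes, and without WT 2 they numbered 1, 1, 0 and 0. Without forebrain WT 3, 1 tip cell gene, 1 venous gene and 1 gene of peripheral endothelium fell in forebrain, 0 arterial genes were called and 0 genes of these lists rose.

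Markers of other cells moved beside the endothelial genes, and their part in the results was not tested. Pericyte genes fell in 4 of 10 tests in testes (among them *Rgs5*, −0.86, and *Pdgfrb*, −0.48; sum 657 to 771 CPM in WT and 468 to 621 CPM in mutants) and in 3 of 11 in forebrain (among them *Abcc9*, −0.74, and *Mcam*, −0.48). Of smooth muscle genes, 1 of 8 fell in testes (*Myh11*, −0.45; sum 1449 to 1762 CPM in WT and 1142 to 1557 CPM in mutants) and 1 of 6 in forebrain (*Acta2*, −0.65). Red cell genes, which travel with blood left in vessels, summed to 2597 to 6861 CPM in WT testes and 865 to 3941 CPM in mutants, with 0 of 5 called. In forebrain they summed to 522 to 719 CPM in WT and 356 to 599 CPM in mutants, with 2 of 5 called lower (*Hba-a1*, −0.62, and *Hba-a2*, −0.59). Among 10 macrophage genes 2 rose in testes (*Cx3cr1*, 1.25, and *Cd68*, 1.05), with sums of 123 to 133 CPM in WT and 70.1 to 172 CPM in mutants, and 1 of 9 rose in forebrain (*Cx3cr1*, 0.88). Without testes WT 1, 2 pericyte genes fell, and without WT 2, 1 did, while 0 smooth muscle and 0 macrophage genes were called in testes without either. Without forebrain WT 3, 1 pericyte gene and 1 red cell gene fell, 0 smooth muscle genes were called and 1 macrophage gene rose.

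Platelet genes in forebrain numbered 4 tested and 0 called. Choroid plexus genes gave 1 fall in each organ (*Cldn1*, already named), with forebrain sums of 594 to 756 CPM in WT and 330 to 876 CPM in mutants. Adipocyte genes gave 0 calls of 3 tested in testes, where *Lep* was at 0 in all libraries, and 0 of 1 in forebrain, where *Cidec* and *Lep* were. Of 8 testis genes 1 rose, the Sertoli factor *Sox9* (1.01), and the list summed to 1660 to 1844 CPM in WT testes, 947 to 1500 CPM in mutant testes and 35.4 to 55.1 CPM in forebrain. Among forebrain genes *Gfap* rose in forebrain (0.70), and the list summed to 2707 to 3712 CPM there and to 24.6 to 46.9 CPM in testes, where *Tubb3* rose (0.75). With either WT testis or forebrain WT 3 left out the choroid plexus list gave 0 calls in that organ, and with either WT testis left out the forebrain list gave 0 in testes. The labelled organs thus carried their own markers.

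How the 10 genes varied together was described by Pearson's r of log2 CPM between pairs. These are descriptions over libraries that share genotype and depth. Of the 45 pairs 29 were positive over the 8 testes libraries (median r = 0.48, range −0.886 to 0.962), and 22 once genotype means were removed (median −0.011). Over the 9 forebrain libraries 37 were positive (median 0.375), and 40 once genotype means were removed (median 0.575). The genes outside the group that followed its mean most closely in testes were *Lin7b* (r = 0.986), *Itgb1bp1* (0.984), *Egln3* (0.982), *Abi1* (0.98), *Gm32051* (0.971), *Adgrf5* (0.971), *Ezr* (0.969) and *Grhl2* (0.967). In forebrain they were *Pold2* (0.941), *Egfl7* (0.934), *C1qb* (0.92), *Dusp28* (0.92), *Anxa1* (0.904), *Pip4k2c* (0.9), *Gm37309* (0.885) and *Gpx1* (0.882). Among these, *Adgrf5* and *Egfl7* were on the list of other endothelial genes. Once genotype means were removed, 0 of the 8 genes in testes recurred, and the leading genes were *Scube2* (r = 0.986), *Kcna1* (0.986), *Mpc1* (0.986), *Tchh* (0.979), *Id2* (0.978), *Grik2* (0.974), *Gm6736* (0.971) and *Adgrb3* (0.97) in testes. In forebrain they were *Doc2g* (r = 0.973), *Fstl1* (0.971), *Ube2v1* (0.968), *Pip4k2c* (0.966), *Pole4* (0.965), *Entrep3* (0.965), *F13a1* (0.963) and *Tssc4* (0.962), with *Pip4k2c* the one gene of the first 8 there to recur.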

How the data were processed

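The authors deposited expected counts per gene from RSEM 1.3.3, made from poly-A libraries after Trim Galore 0.6.6 and STAR 2.7.8a alignment to GRCm39, per the labels and the study's methods. Whether counting used strand is not given in the sources used here. Values were rounded to whole numbers, genes were filtered per organ with edgeR's filterByExpr (16361 genes in testes, 16076 in forebrain, 17800 in the joint fit), and libraries were scaled by TMM. Differences were tested with edgeR 4.0.16 (quasi-likelihood, robust; limma 3.58.1, R 4.3.3), with all genotypes of an organ in one fit and Benjamini-Hochberg adjustment over all genes tested. Mutants against WT is the mean of both mutant genotypes minus WT. Rows were matched to symbols by Ensembl ID in GENCODE vM39 (54749 of 55359). The scripts were tested on simulated counts.

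Replicates differed by more than sampling noise, and none was a copy of another. With 7302401 to 14621584 expected counts in 16 libraries and 6518151 in forebrain WT 3, the lowest member value rests on 32 counts. The members and lists were chosen with earlier results of these data known. All 10 members are named, and from each list the genes called in mutants against WT with the lowest adjusted p, up to 2 per direction and organ, together with *Abcb1b*, *Gtpbp3* (chosen after its values were seen) and the 8 genes per organ most correlated with the mean of the members. A marker gene that this rule would name is not reported here. Alternatives were DESeq2 1.42.0, a likelihood ratio test, other scalings and filters, a replicate block, offsets for GC content and length (added after seeing the data) and leaving out each library.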

Additional observations from a re-analysis of the deposited data

Results flagged for a closer look

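A set of 3 genes of the 10 had a mutant against WT difference that was not the same in the 2 organs by the test of the difference itself (edgeR quasi-likelihood test, forebrain minus testes, over 17 libraries). *Tek* differed by 0.92 (adjusted p = 0.0327), with −0.77 in testes, where all 6 mutant libraries lay below both WT libraries, and 0.14 in forebrain. *Mfsd2a* differed by −0.93 (adjusted p = 0.0373), with 0.97 in testes, where all 6 mutant libraries lay above both WT libraries, and 0.019 in forebrain. *Plvap* differed by 1.11 (adjusted p = 0.0389), with −0.81 in testes, where all 6 mutant libraries lay below WT, and 0.29 in forebrain. Its reads may not be fully told apart from those of *Gtpbp3* in either organ. Over the 17 fits that leave out 1 library, *Tek* was no longer past the threshold in 7, *Mfsd2a* in 9 and *Plvap* in 10, with no change of sign.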

How the results depend on the processing

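With scaling to the other endothelial genes the members called went from 6 to 3 in *Ocn*−/− testes (922 to 8201 of all genes). They went from 6 to 3 in mutant testes (1626 to 7787) and from 0 to 2 in *Ocn*−/− forebrain (780 to 2711). They went from 1 to 3 in mutant forebrain (1395 to 4360) and from 3 to 1 for the difference between organs (526 to 784). Signs turned in testes for *Cdh5* (0.099 in *Ocn*+/−, 0.16 in *Ocn*−/−, 0.13 in mutants), *Esam* (0.096, 0.023 and 0.060), *Plvap* (0.043 in *Ocn*+/−), *Tie1* (0.055 in *Ocn*−/−, 0.26 in mutants) and *Abcb1a* (0.27 and 0.032). They turned in forebrain for *Abcb1a* (0.027 in *Ocn*+/−, 0.0042 in mutants), *Cdh5* (0.19 in *Ocn*−/−) and *Esam* (0.071 and 0.0075), for the difference between organs in *Esam* (−0.051) and *Abcb1a* (−0.024), and between organs in *Tie1* (0.46), *Tek* (0.60) and *Esam* (0.67). Library size alone left 0 members called in *Ocn*+/− forebrain (369 of all genes beside 625). For the difference between organs it left 1 (397 beside 526), and *Cdh5* was at 0.059 in *Ocn*−/− forebrain. DESeq2, no filter and the likelihood ratio test each added 1 call (*Pecam1*) in *Ocn*−/− forebrain and 1 (*Tek*, adjusted p = 0.0380, 0.0204 and 0.0315) in *Ocn*+/− testes, where the filter of 10 counts and the fit of 2 genotypes alone added *Tek* too. In that last fit *Cdh5* was not called in *Ocn*−/− testes (adjusted p = 0.0599), nor was it with library size alone (adjusted p = 0.0810). Over all genes DESeq2, no filter and the likelihood ratio test gave 1142, 1502 and 1140 calls in *Ocn*−/− forebrain beside 780. In *Ocn*+/− testes they gave 1697, 2149 and 1806 beside 1350, and for the difference between organs 1027, 1023 and 948 beside 526. With GC offsets 1 member was called in *Ocn*+/− testes, and signs turned for *Tie1* there (−0.24), *Mfsd2a* in forebrain (−0.032, −0.0030 and −0.017 in *Ocn*+/−, *Ocn*−/− and mutants), *Cldn5* (0.034, difference between organs) and *Plvap* (−0.0012, between organs). With GC and length offsets they turned for *Tie1* (−0.26, *Ocn*+/− testes), *Mfsd2a* (−0.040 in *Ocn*+/− and −0.020 in mutant forebrain), *Cdh5* (−0.0068, mutant forebrain) and *Esam* (0.084, between organs). With WT libraries alone *Plvap* turned to −0.39 between organs. The cause of these changes was not tested.

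Same-numbered libraries of an organ did not deviate together (correlations −0.0937 to 0.0871 in testes and −0.0366 to 0.146 in forebrain). The numbers were thus not taken to pair samples within an organ. Whether a pup gave both a testes and a forebrain library was not tested, and the joint fit takes the 17 libraries as independent. With a replicate block 0 members were called for the difference between organs, as calls over all genes went from 526 to 365. In *Ocn*−/− forebrain 1 was called (*Pecam1*, −0.57, adjusted p = 0.0187), as calls over all genes went from 780 to 1140. *Mfsd2a* in testes missed the threshold in each mutant genotype (adjusted p = 0.0644 and 0.0577), as did *Plvap* in mutants (adjusted p = 0.0617). *Cdh5* turned to −0.0071 in mutant forebrain under the block. All other calls of members were unchanged by it.

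Leaving out 1 mutant testis gave 1 to 4 members called in *Ocn*+/− testes, 3 to 6 in *Ocn*−/− testes and 4 to 6 in mutant testes. Over all genes the calls then ranged from 352 to 2019, 409 to 1559 and 1046 to 2497. Calls in mutant testes were fewer still without a WT testis, as given above. Leaving out 1 forebrain library gave 0 to 1 members in each of the 3 forebrain comparisons with WT. The calls over all genes were 183 to 830 in *Ocn*+/−, 189 to 919 in *Ocn*−/− and 320 to 1527 in mutants. With any library but a WT testis left out, 0 to 3 members were called for the difference between organs, beside 274 to 1070 of all genes. Between organs 7 to 9 were called, beside 14797 to 14929 of all genes. Signs turned for values near 0: *Tie1* in *Ocn*+/− testes (−0.056 to 0.15), *Cdh5* in forebrain (−0.055 to 0.18 in *Ocn*+/−, −0.27 to 0.11 in *Ocn*−/−, −0.085 to 0.10 in mutants), *Mfsd2a* in forebrain (−0.083 to 0.076, −0.065 to 0.094 and −0.074 to 0.085) and *Cldn5* for the difference between organs (−0.30 to 0.056). Where a WT testis was left out, the other was assumed to vary like the mutant libraries. Low counts limit *Emcn* in forebrain (32 to 73 expected counts) and *Plvap* in both organs (34 to 155).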
